A study of Bos taurus with 2 samples.

Results

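10 genes of the Wnt pathway were followed across the 15 cell clusters of cultured bovine satellite cells. They are 10 of the 21867 genes in the feature list, and were taken by name, with earlier results of these data known. The ligands were WNT5A (ENSBTAG00000020221) and WNT5B (ENSBTAG00000054367). The receptors were FZD1 (ENSBTAG00000002107), FZD2 (ENSBTAG00000020590) and FZD7 (ENSBTAG00000002283), with the co-receptor LRP6 (ENSBTAG00000011761). The secreted inhibitors were SFRP1 (ENSBTAG00000027625), SFRP2 (ENSBTAG00000018563) and DKK3 (ENSBTAG00000004275), and AXIN2 (ENSBTAG00000030162) is a target gene.

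The cells came from the longissimus muscle of 1 untreated male Holstein calf aged 2 weeks, were released by pronase digestion and grown for 1 week in DMEM with serum. The same cells gave 2 single-cell RNA libraries (10x Genomics, 3′ chemistry), here replicates 1 and 2, with 9939 and 9157 cells. The libraries are thus technical replicates, and p-values cover the spread between them and not that between animals. No sort was applied, and the clusters, which the authors made on these counts, are the groups compared.

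Wnt ligands are secreted lipid-modified proteins that bind Frizzled receptors on the cell surface. With LRP5 or LRP6 as co-receptor, binding stabilises β-catenin, which then turns on genes such as AXIN2, itself a scaffold of the complex that destroys β-catenin. WNT5A and WNT5B mostly act through other branches, such as planar cell polarity, often with ROR1, ROR2, RYK or PTK7. SFRP proteins carry a Frizzled-like domain and can bind the ligand outside the cell, DKK1 and DKK2 bind the co-receptors, and DKK3 is a divergent relative. In skeletal muscle, Wnt signals are known for roles in the growth and the differentiation of satellite cells, the stem cells of the fibre.

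A level is given as unique molecular identifiers (UMIs, counted RNA molecules) per 10000 UMIs of the same cells, as mean ± SD of the 2 libraries. The counts were taken at the 3′ end without scaling to transcript length, so levels were compared between clusters for 1 gene and not between genes. The libraries held 145631299 and 137818568 UMIs, and the median cell held 14626 and 15206. Clusters 7, 13, 14 and 15 were shallow, with medians of 1389, 1631, 2513.5 and 647 UMIs per cell, and cluster 10 had 5398.5, against 12929 to 23011 elsewhere. The libraries shared 27 cell barcodes.

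Marker genes were read before the results. Desmin (DES) was counted in 128980 UMIs, PAX7, the satellite cell transcription factor, in 176, and PTPRC, which marks immune cells, in 1. Summed over 8 myogenic markers, the lowest level was 2.02 (cluster 9) and the highest 64.1 (cluster 12). Summed over 7 fibro-adipogenic markers, these were 19.2 (cluster 12) and 193 (cluster 7). Endothelial markers summed to at most 0.0299 in any cluster and immune markers to at most 0.147, in cluster 7. Pericyte and smooth muscle markers summed to 4.14 to 11.98, highest in cluster 7, tendon markers to at most 0.0666, and Schwann cell markers to 0.123 to 0.529, with 2 of 4 at 0. The study calls clusters 7 and 9 fibro-adipogenic, clusters 3 and 12 myocytes, and clusters 1, 2, 4, 5 and 8 earlier myogenic cells. The fibro-adipogenic sum of cluster 9 was 32.3, below the 52.2 to 92.1 of clusters 1, 4, 5 and 8, so the list as a whole did not set cluster 9 apart. Of its genes, PDGFRA, a receptor of fibro-adipogenic progenitors, stood at 1.52 in cluster 7 and 1.58 in cluster 9, and at 0.0922 to 0.266 in the 7 myogenic clusters. PPARG and ZNF423 were also higher in cluster 9 than in any myogenic cluster, while DCN, LUM, THY1 and COL3A1, genes of matrix and stroma, were lower there than in cluster 8. Of the 193 in cluster 7, COL3A1 alone gave 176. DCN, LUM and THY1 were lower in cluster 7 than in cluster 8, while PDGFRA, PPARG and ZNF423 were higher. The myogenic sum of cluster 7 was 15.7, above the 13.1 of cluster 1. Cluster 7 also held MYH3, an embryonic myosin of differentiating muscle, at 4.69, against 0.126 in cluster 9. Clusters 4, 5 and 8 had myogenic sums of 5.31, 4.59 and 3.65, below those of clusters 1 and 7. They are called myogenic here after the study. In cluster 8, DES was at 0.972 against 0.896 in cluster 9, while MYF5 was at 1.57 against 0.131.

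6 of the genes had at least 1000 UMIs each. FZD2 had 11088 UMIs in 5948 cells (31.1% of all cells), WNT5B 9664 in 5725 cells (29.98%) and FZD1 4347 in 3517 cells (18.4%). SFRP1 had 5049 UMIs in 3470 cells (18.2%), DKK3 3701 in 3118 cells (16.3%), and SFRP2 6147 in 1133 cells (5.93%). SFRP2 was thus counted in the fewest cells of the 6 genes. It reached 154 UMIs in 1 cell, while the most in 1 cell was 15 for FZD2 and 11 for WNT5B. LRP6 had 874 UMIs, WNT5A 178, AXIN2 92 and FZD7 46, too few to order most clusters.

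**Figure D1:**
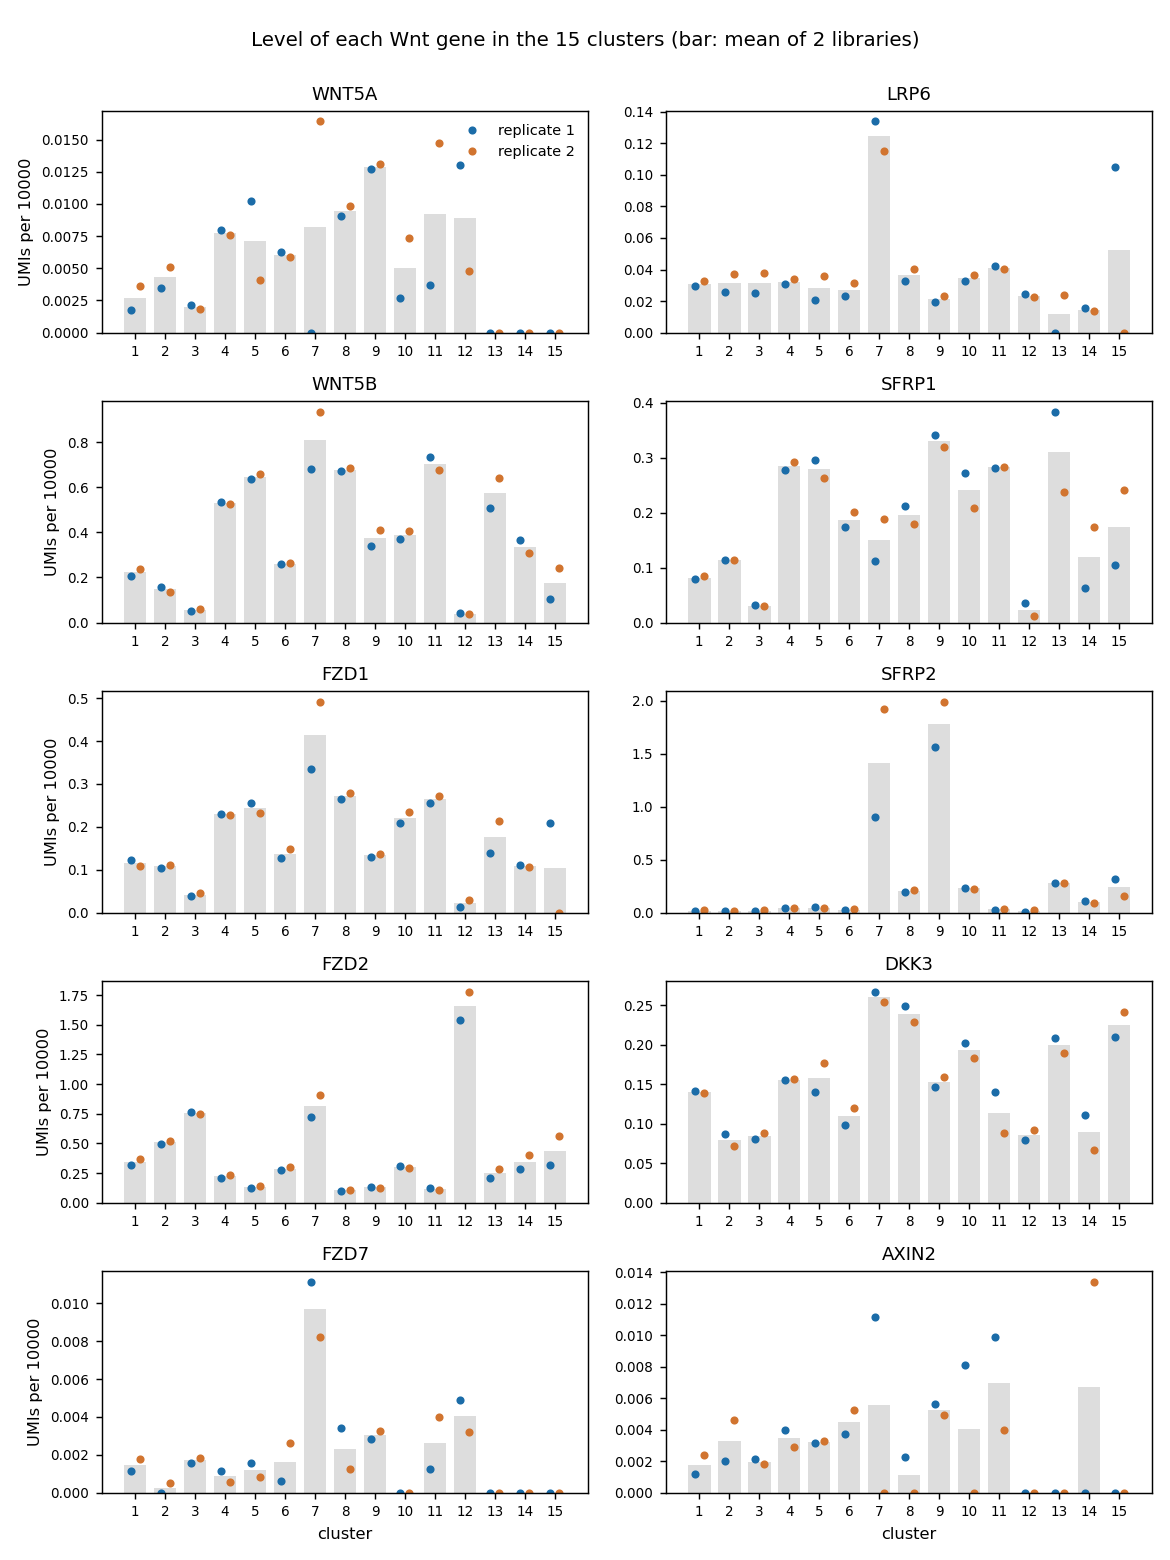
Level (UMIs per 10000, vertical axes from 0 with a scale of their own) of the 10 Wnt genes in the 15 clusters. Grey bars are means of 2 libraries and points are the libraries. SFRP2 stands out in clusters 7 and 9, and FZD2 in cluster 12, where WNT5B, FZD1 and SFRP1 are lowest.

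The ligand WNT5B was high in clusters 4, 5 and 8, early myogenic cells by the study's names, and low in myocytes. Its level in cluster 8 was 0.673 in replicate 1 and 0.683 in replicate 2, and in cluster 12 it was 0.0423 and 0.0367, a 17.2-fold ratio of the means. Between them, cluster 5 had 0.634 and 0.657, cluster 4 had 0.532 and 0.526, and cluster 3 had 0.0523 and 0.0597. The other early clusters lay between clusters 4 and 3, cluster 1 at 0.207 and 0.239 and cluster 2 at 0.160 and 0.137, and both passed as lower than all other cells (log2 fold change -0.60 ± 0.07 and -1.34 ± 0.08). Both libraries gave the same order from cluster 8 over 5, 4, 1 and 2 to 3 and 12, and no library of an early cluster overlapped one of a myocyte cluster. Against all other cells, the quasi-likelihood test of edgeR, adjusted after Benjamini and Hochberg, gave a log2 fold change of -2.99 ± 0.11 (SE, adjusted p = 4.86e-06) in cluster 12. In cluster 3 it was -2.64 ± 0.07 (adjusted p = 8.10e-06). WNT5B passed the test as higher in 6 clusters and as lower in 5 of the 15. Clusters were made on the same counts as these tests, so a small p-value is not independent evidence of a difference.

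Its highest means were in cluster 7, at 0.680 and 0.935, and in cluster 11, at 0.734 and 0.675, and these 2 overlapped. The first place of cluster 7 depends on scaling by total UMIs. In the fits, scaled by TMM, its log2 fold change was 0.64 ± 0.15, below the 1.13 ± 0.05 of cluster 8 and 1.09 ± 0.06 of cluster 11. The call in cluster 7 was lost without cells under 2000 UMIs (adjusted p = 0.261). Cluster 9 had 0.342 and 0.410, close to the 0.338 ± 0.00450 of all other cells, and did not pass the test (log2 fold change 0.12 ± 0.09, adjusted p = 0.302). Of the 14 pairs of neighbours in the order of its levels, 6 were apart, meaning that both libraries of 1 cluster lay above both of the next.

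WNT5A was rare, and cluster 9 ranked first. It had 18 and 16 UMIs there, or 0.0127 and 0.0131 per 10000, against 0.00561 ± 0.000289 in all other cells (log2 fold change 1.17 ± 0.25, adjusted p = 0.00905). Cluster 3 was at the other end of the clusters with a UMI, with 4 and 3 UMIs (0.00211 and 0.00183), and its log2 fold change was -1.66 ± 0.35 (adjusted p = 0.0105), a call lost with DESeq2 (adjusted p = 0.0903) and with the other clusters weighted equally (0.0827). Clusters 13, 14 and 15 had 0 UMIs, which allows a level of up to 0.0302, 0.0218 and 0.137, above the level of cluster 9, so nothing can be said of them. These limits, of 3 counts, cover counting error only.

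Among the receptors, FZD1 and FZD2 were called with opposite signs in 6 of the 7 myogenic clusters (2, 3, 4, 5, 8 and 12). In cluster 1 FZD1 was lower and FZD2 did not pass, in cluster 7 both were higher, and in cluster 9 both were lower. FZD2 rose to 1.54 and 1.78 in cluster 12, where 547 of 627 cells (87.2%, 95% exact binomial interval 84.4% to 89.8%) had at least 1 UMI of it. Its lowest level was in cluster 8, at 0.101 and 0.108, where 13.4% of the cells (11.5% to 15.4%) had a UMI, a 15.9-fold ratio of the means. These intervals cover counting error only. Both libraries of cluster 12 lay above both of every other cluster. The log2 fold change in cluster 12 against all other cells was 2.50 ± 0.07 (edgeR, adjusted p = 2.73e-06), and in cluster 3 it was 1.28 ± 0.07 (adjusted p = 6.15e-05). FZD2 was also higher in cluster 2 (0.43 ± 0.05, adjusted p = 0.00399) and in cluster 7 (0.45 ± 0.13, 0.0363), and lower in 8 clusters, with -1.93 ± 0.08 in cluster 8 and -1.71 ± 0.07 in cluster 9. The call in cluster 7 was lost without the filter on low counts (adjusted p = 0.0675) and with the other clusters weighted equally (0.0647), and the libraries alone gave 0.26 and 0.58 there.

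The share of cells with a UMI depends on depth, so each cell was also thinned to 1000 UMIs. FZD2 was then found in 18.02% of the cells of cluster 12 and in 0.967% of those of cluster 8, and no cell of these clusters was too shallow to enter. The share in cluster 12 was thus also the higher one at equal depth.

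FZD1 had 0.264 and 0.280 in cluster 8 and 0.0130 and 0.0304 in cluster 12, a 12.5-fold ratio of the means in the other direction. Cluster 12 rested on 8 and 19 UMIs, and both libraries lay below those of cluster 3 (0.0380 and 0.0457). The log2 fold change was -2.69 ± 0.24 (edgeR, adjusted p = 1.81e-04) in cluster 12 and 0.94 ± 0.06 (adjusted p = 2.21e-04) in cluster 8. Per total UMIs, cluster 7 had the highest FZD1 level, 0.335 and 0.492. Scaled by TMM, the log2 fold change there was 0.84 ± 0.19 (adjusted p = 0.0128), below that of cluster 8. In cluster 9 it was -0.25 ± 0.07 (adjusted p = 0.0237), a call lost with DESeq2 (0.159).

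FZD7, a receptor known from satellite cells, had 46 UMIs in 46 cells, and no cluster passed the test. Its level in all cells was 0.00151 in replicate 1 and 0.00174 in replicate 2. Clusters 10, 13, 14 and 15 had 0 UMIs, and the remaining clusters could not be ordered at this depth beyond 2 of 14 neighbouring pairs.

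LRP6 ran from 0.0214 ± 0.00231 in cluster 9 to 0.0411 ± 0.00137 in cluster 11 over all but the shallow clusters. Cluster 7 stood above them with 12 and 14 UMIs, or 0.134 and 0.115 per 10000, against 0.0302 ± 0.00496 in all other cells. Its log2 fold change was 1.38 ± 0.27 (edgeR, adjusted p = 0.00832). In cluster 9 LRP6 passed as lower (-0.62 ± 0.19, adjusted p = 0.0372), and that call was lost with DESeq2 (adjusted p = 0.147) and 3 other settings.

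SFRP1, like WNT5B and FZD1, was lowest in myocytes, but had its highest mean in cluster 9. Cluster 9 had 0.342 and 0.319, overlapping the next, and cluster 4 had 0.278 and 0.291. Clusters 3 and 12 were lowest, at 0.0312 and 0.0298 and at 0.0358 and 0.0112, and overlapped each other. The log2 fold change was 0.99 ± 0.06 (edgeR, adjusted p = 5.26e-05) in cluster 9, -2.57 ± 0.08 (adjusted p = 1.17e-05) in cluster 3 and -2.80 ± 0.30 (adjusted p = 3.91e-04) in cluster 12. SFRP1 was also lower in cluster 7, at 0.112 and 0.189, with -0.84 ± 0.23 (adjusted p = 0.0258). Without TMM that value was -0.20 (adjusted p = 0.530), and without cells under 2000 UMIs it was -0.53 (adjusted p = 0.271).

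SFRP2 had the widest range of the 6 abundant genes, with a 112-fold ratio of the means between cluster 9 and cluster 2. The level of cluster 2 is among those not read as expression below, and the ratio of cluster 9 to cluster 8 was 8.67. Cluster 9 had 2225 and 2429 UMIs, or 1.57 and 1.99 per 10000, and so held 75.7% of all SFRP2 UMIs against 9.31% of the UMIs of all genes. All other cells had 0.0583 ± 0.0118, and the log2 fold change was 4.90 ± 0.17 (edgeR, adjusted p = 6.05e-06). Cluster 7 followed with 0.903 and 1.92 (81 and 234 UMIs), overlapping cluster 9, with a log2 fold change of 2.17 ± 0.30 (adjusted p = 0.00198). Replicate 1 alone gave 1.53 in cluster 7 and replicate 2 alone 2.51, so the size of that difference rests on the library. Clusters 8, 10 and 13 had 0.205 ± 0.0132, 0.230 ± 0.00343 and 0.282 ± 0.00378. Clusters 1, 2, 3, 6, 11 and 12 had means of 0.0160 to 0.0310, and clusters 4 and 5 of 0.0438 and 0.0452. The part of free RNA in the droplets in levels this low was not tested, and they were not read as expression.

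The cells of cluster 9 were far from alike in SFRP2. Of its 1080 cells, 681 had no SFRP2 UMI and 270 had 1 to 9, while 129 cells had 10 or more and held 3807 of the 4654 UMIs (81.8%). In replicate 1 the 58 cells that make up the top 10% held 78.5% of the UMIs, and in replicate 2 the top 49 cells held 73.4%. The same share was 26.6% and 27.3% for PDGFRA, 47.8% and 49.3% for RSPO3, 42.3% and 42.4% for SFRP1, and 43.7% and 39.9% for WNT5B. These genes have other levels, and a rare gene is spread over few cells by counting alone, but PDGFRA had 4177 UMIs in cluster 9, close to the number of SFRP2. The median depth was 22569 UMIs in cells with 10 or more SFRP2 UMIs and 22803 in cells with none. Without the former, the level in cluster 9 was 0.366, a comparison chosen after the data were seen.

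**Figure D2:**
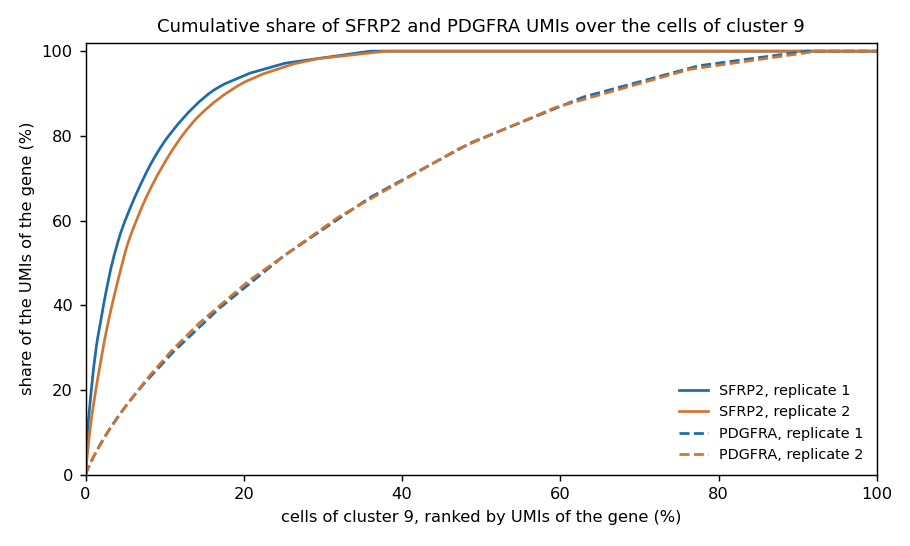
Cumulative share (%) of the UMIs of SFRP2 (solid) and PDGFRA (dashed) over the 1080 cells of cluster 9, ranked separately for each gene and library from most to fewest UMIs. The top 10% of cells held 78.5% and 73.4% of the SFRP2 UMIs in replicates 1 and 2, and 26.6% and 27.3% of the PDGFRA UMIs.

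Levels of other genes in the cells of cluster 9 with 10 or more and with no SFRP2 UMI are given as a description, since these cells were chosen on a measured value. WNT5B was at 0.519 and 0.577 in the former (replicates 1 and 2, 60 and 69 cells) and at 0.284 and 0.322 in the latter (375 and 306 cells). SFRP1 was at 0.406 and 0.439 against 0.316 and 0.267. Both were thus higher in both libraries where SFRP2 was high. PDGFRA ran the other way, with 1.11 and 1.37 against 1.78 and 1.61. Other fibro-adipogenic markers did not: DCN was at 10.7 and 11.3 against 9.18 and 8.57. COL3A1 was at 21.0 and 24.9 against 16.3 and 15.8, and PPARG at 0.386 and 0.271 against 0.273 and 0.267. FZD1 was also higher, at 0.226 and 0.191 against 0.116 and 0.118. FZD2 was at 0.153 and 0.110 against 0.126 and 0.109, and DKK3 at 0.133 and 0.254 against 0.139 and 0.121. RSPO3 gave no common direction, with 0.406 and 0.658 against 0.552 and 0.560.

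Few cells also carried SFRP2 in other clusters. In cluster 7, 6 cells of replicate 2 and no cell of replicate 1 had 10 or more UMIs, and the 6 held 144 of 234 UMIs in that library. Leaving them out moved the mean of cluster 7 from 1.41 to 0.827. In cluster 8, 7 of 1241 cells held 192 of 348 UMIs, and the level without them was 0.0923. The share of cells with a UMI was 36.9% (34.1% to 39.9%) in cluster 9 and 2.87% (1.71% to 4.50%) in cluster 12, myocytes taken here as background, at median depths of 23011 and 19113 UMIs. At 1000 UMIs per cell the shares were 10.3% in cluster 9, 0.319% in cluster 12 and 5.65% in cluster 7, where 290 of 1298 cells were too shallow to enter.

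DKK3 varied least among the 6 abundant genes, over a 3.29-fold range. Cluster 7 had 0.268 and 0.254, cluster 8 had 0.249 and 0.229, and cluster 2 had 0.0869 and 0.0717, the lowest mean. The log2 fold change was 1.00 ± 0.07 (edgeR, adjusted p = 2.75e-04) in cluster 8 and -0.82 ± 0.10 (adjusted p = 0.00389) in cluster 2. In cluster 7 it was 0.36 ± 0.14 and did not pass (adjusted p = 0.138), while without TMM it was 1.01 (adjusted p = 0.00268). In cluster 9 it was 0.22 ± 0.07 (adjusted p = 0.0489), and this call was lost in 5 of 8 settings, where adjusted p ran up to 0.938.

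AXIN2, which reports the β-catenin branch, had 92 UMIs in 90 cells. Cluster 11 had the highest mean, from 8 and 3 UMIs, and overlapped the next. Cluster 12 had 0 of 12408491 UMIs, which allows a level of up to 0.00242, against 0.00339 ± 0.000173 in all other cells, at least 1.40-fold lower with a limit of 3 counts over the cluster. The test called this difference (adjusted p = 0.0324), on a fitted value that depends on the prior count and is not printed. The call was lost with DESeq2 (adjusted p = 0.12502) and with the other clusters weighted equally (0.0581).

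Counting pairs of gene and cluster, 28 of 150 passed as higher and 37 as lower than in all other cells, 1 of the latter the AXIN2 value above. Per cluster, 0.039% to 25.3% of all genes tested were called higher and 0.234% to 29.5% lower. Both counts are given as a description and not as an excess over all genes. SFRP2 was lower in 8 clusters (1 to 6, 11 and 12), where its levels were not read as expression. The other cells there include cluster 9 and had SFRP2 at 0.227 to 0.250, against 0.0583 in all cells outside cluster 9. In cluster 8, 3 genes were higher (WNT5B, FZD1 and DKK3) and 1 lower (FZD2), where 22.5% of all genes tested were called higher and 23.5% lower. In cluster 5, 3 were higher (WNT5B, FZD1 and SFRP1) and 2 lower (FZD2 and SFRP2), against 12% and 12% of all genes. In cluster 4, 4 were higher and 2 lower, against 16.3% and 15.3%. WNT5B and FZD1 were higher and FZD2 was lower in each of these 3 clusters.

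Clusters 1 and 2 showed mainly lower members. Cluster 1 had 0 higher and 4 lower (14.6% and 18.8% of all genes), and edgeR at an unadjusted p under 0.05 had 1 higher (DKK3) where DESeq2 called 0. Cluster 2 had 1 higher and 5 lower (15% and 16.8%), cluster 3 had 1 and 6 (24.5% and 25.4%), and cluster 12 had 1 and 6 (24.8% and 29.5%). In clusters 2, 3 and 12 the gene that was higher was FZD2.

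Cluster 7 had 5 higher and 1 lower (18.3% and 26.4% of all genes). This split depends on scaling, since TMM left the median log2 fold change of all genes in cluster 7 at -0.12 and total UMIs put it at 0.52. Without TMM, 6 genes were higher and 0 lower there, and 4768 of all genes were higher and 1625 lower, in place of 2382 and 3443. Cluster 9 had 4 higher and 3 lower (25.3% and 27.7%).

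Of the clusters without a cell type in the study, cluster 6 had 0 higher and 3 lower (10.6% and 9.48% of all genes) and cluster 10 had 2 and 1 (16.7% and 21.9%). Cluster 11 had 3 and 2 (12.8% and 13.7%), with WNT5B, FZD1 and SFRP1 higher and FZD2 and SFRP2 lower. Cluster 13 had 1 and 1 (5.98% and 11.3%). Clusters 14 and 15 had 0 and 0, where few genes of any kind were called (3.73% and 4.07%, and 0.039% and 0.234%). DESeq2 also called 0 higher in clusters 6, 14 and 15 and 0 lower in 14 and 15, and at an unadjusted p under 0.05 edgeR had 1 gene among these, SFRP2 as lower in cluster 14.

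**Figure D3:**
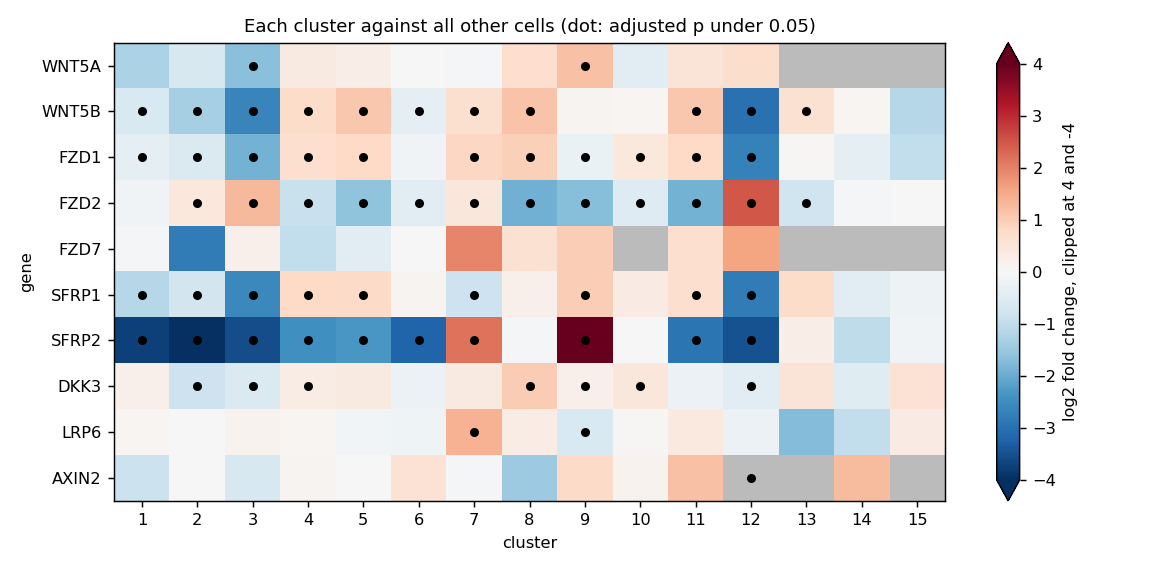
Log2 fold change (colour, clipped at 4 and -4) of the 10 genes in each of 15 clusters against all other cells, from edgeR sums of 2 libraries against 2. Dots mark an adjusted p under 0.05 and grey fields a cluster with 0 UMIs of the gene. FZD2 and WNT5B were both called, with opposite signs, in clusters 2, 3, 4, 5, 8, 11, 12 and 13, and with the same sign in clusters 6 (both lower) and 7 (both higher).

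Along both paths that the study drew through the myogenic clusters, the mean level of FZD2 rose and that of FZD1 fell. The study inferred these paths from the same counts. On the path through clusters 8, 1, 3 and 12, FZD2 went from 0.104 ± 0.00506 to 0.344 ± 0.0390, 0.754 ± 0.0109 and 1.66 ± 0.171. FZD1 went from 0.272 ± 0.0112 to 0.116 ± 0.00858, 0.0418 ± 0.00539 and 0.0217 ± 0.0123 over the same clusters. MYOG, the regulator of myoblast differentiation, went from 0.108 to 0.876, 6.68 and 18.6 beside them. Each step of FZD2 and FZD1 was apart in both libraries, but the share of all genes apart at these steps was not counted. At the tested step, cluster 12 against cluster 3, FZD2 passed and FZD1 did not (edgeR, log2 fold change -0.84 ± 0.35, adjusted p = 0.102).

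On the other path, through clusters 8, 5, 4 and 2, WNT5B, FZD1 and SFRP1 changed most in the last step. FZD2 rose at each step. WNT5B was at 0.678 ± 0.00743, 0.646 ± 0.0161 and 0.529 ± 0.00474 before it reached 0.149 ± 0.0159 in cluster 2, a 3.56-fold ratio of cluster 4 to cluster 2. SFRP1 was at 0.196 ± 0.0239, 0.279 ± 0.0231 and 0.285 ± 0.00938 and then at 0.113 ± 9.71e-05. FZD1 was at 0.272 ± 0.0112, 0.244 ± 0.0179 and 0.229 ± 0.00175 and then at 0.108 ± 0.00553. FZD2 was at 0.104 ± 0.00506, 0.133 ± 0.00982, 0.222 ± 0.0173 and 0.508 ± 0.0181. It was 2.29-fold higher in cluster 2 than in cluster 4. Steps along the paths were not tested, other than cluster 12 against cluster 3.

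**Figure D4:**
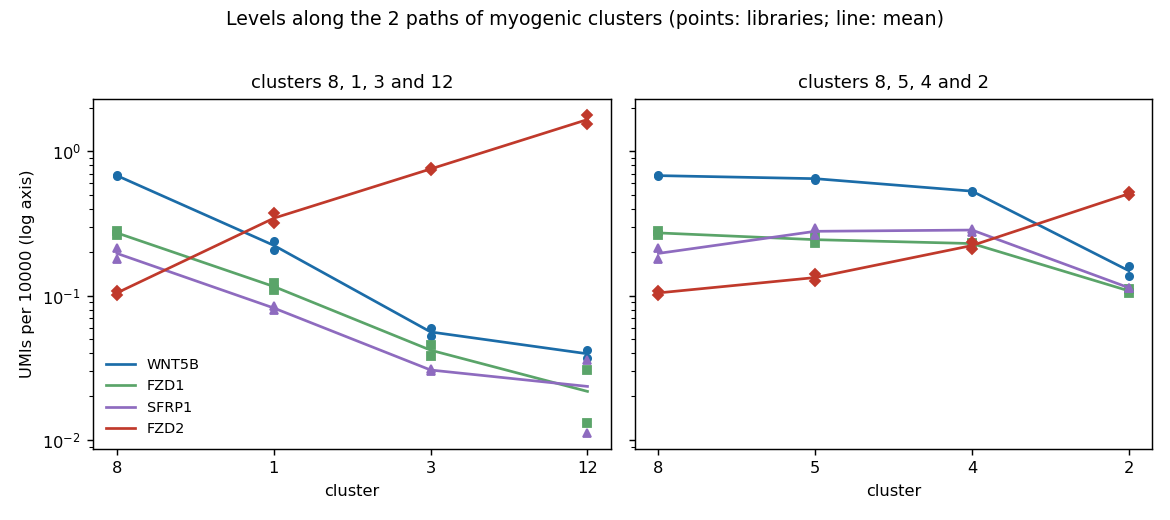
Levels (UMIs per 10000, log axis) of WNT5B, FZD1, SFRP1 and FZD2 along the 2 paths of myogenic clusters, with a point for each library and a line through the means. FZD2 climbs from 0.104 in cluster 8 to 1.66 in cluster 12 and 0.508 in cluster 2, while the other genes end lower than they began.

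Between the myocyte clusters, cluster 12 against cluster 3, 7 of the 10 genes were tested, as WNT5A, FZD7 and AXIN2 had too few counts. FZD2 was the 1 gene higher and 0 genes were lower, where 18.2% of all genes were called higher and 15.6% lower. FZD2 differed by 1.23 ± 0.07 on the log2 scale (edgeR, adjusted p = 1.09e-05). With 0 genes lower at the adjusted threshold, DESeq2 also called 0, and FZD1 alone was lower at an unadjusted p under 0.05 (log2 fold change -0.84 ± 0.35). The libraries are shared by both sums, and with the library as a block FZD1 passed (adjusted p = 0.00979). WNT5B, SFRP1, SFRP2 and DKK3 had values of -0.40 ± 0.22, -0.28 ± 0.43, -0.01 ± 0.44 and 0.13 ± 0.16, none past the threshold.

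Between the clusters that the study calls fibro-adipogenic, cluster 9 against cluster 7, the same 7 genes were tested. Of these, 1 was higher and 4 were lower, where 29.9% and 26.6% of all genes were called. SFRP1 was higher in cluster 9 by 1.59 ± 0.23 on the log2 scale (edgeR, adjusted p = 9.27e-04). FZD2 was lower by a log2 fold change of -2.16 ± 0.17 (adjusted p = 4.66e-05), LRP6 by -2.02 ± 0.32 (0.00142), FZD1 by -1.16 ± 0.21 (0.00276) and WNT5B by -0.63 ± 0.18 (0.0216). FZD1, FZD2 and LRP6, the receptors and the co-receptor with more than 100 UMIs among the 10 genes, were thus all lower in cluster 9. The call of WNT5B was lost without cells under 2000 UMIs (adjusted p = 0.242). SFRP2 did not pass (0.80 ± 0.30, adjusted p = 0.0514), but did with the library as a block (0.89, adjusted p = 0.00456), and was at 0.21 (adjusted p = 0.771) without cells under 2000 UMIs. The clusters differ by more than the median depth of their cells, 23011 and 1389 UMIs, and without TMM the median of all genes moved from 0.05 to -0.46. The part of depth in these differences was not tested.

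Cluster 9 was also set against the 7 myogenic clusters together, where 5 genes were higher and 1 lower (28.9% and 27.6% of all genes). SFRP2 differed by 5.39 ± 0.13 on the log2 scale (edgeR, adjusted p = 8.93e-06), WNT5A by 1.26 ± 0.25 (0.00833) and SFRP1 by 1.16 ± 0.06 (7.99e-05). AXIN2 (1.10 ± 0.36, adjusted p = 0.0471) and DKK3 (0.23 ± 0.07, 0.0342) passed narrowly, and both calls were lost with DESeq2 (adjusted p = 0.258 and 0.191). FZD2 was lower, with -1.85 ± 0.07 (2.88e-05), but not below each myogenic cluster. Its level in cluster 9, 0.135 and 0.126, overlapped that of cluster 5 (0.126 and 0.140) and lay above that of cluster 8 (0.101 and 0.108). With the library as a block, AXIN2 no longer passed (adjusted p = 0.0576), while WNT5B was higher (0.23, 0.00332) and LRP6 lower (-0.56, 0.0127). Neither WNT5B nor DKK3 was above each myogenic cluster. WNT5B was at 0.376 ± 0.0481 in cluster 9, below the 0.529 to 0.678 of clusters 4, 5 and 8. DKK3 was at 0.153 ± 0.00901 in cluster 9, below the 0.239 ± 0.0140 of cluster 8, and overlapped clusters 4 and 5.

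Genes with the most similar pattern over the 15 clusters were looked up for the 6 genes with at least 1000 UMIs, by Pearson's r of log2(level + 0.01) among 9067 genes. These are descriptions over clusters that share libraries. FZD2 was closest to CHRNG, the fetal subunit of the muscle acetylcholine receptor (r = 0.972), ENSBTAG00000054069, which has no name in the feature list (0.972), and DMPK, the kinase of myotonic dystrophy (0.9604). SFRP2 was closest to THBS2 (0.9799) and CD248 (0.974), a matrix protein and a stromal surface protein, and to NOV (0.958). WNT5B and FZD1 were among each other's closest 3 genes (r = 0.961), and both had UAP1L1 first (0.961 and 0.964). The values of WNT5B were lower in each library alone. With FZD1 they were 0.850 in replicate 1 and 0.695 in replicate 2, and with UAP1L1 0.863 and 0.609. FZD1 with UAP1L1 had 0.968 and 0.9498.

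WNT5B was also close to the unnamed ENSBTAG00000007213 (0.956) and FZD1 to CRISPLD2 (0.961). SFRP1 was closest to TMEM158 (0.9498), CDR2 (0.932) and LASP1 (0.931), and DKK3 to STK40 (0.940), SORBS3 (0.931) and TCF25 (0.926). In replicates 1 and 2 alone, r of DKK3 with STK40 was 0.941 and 0.671. Of marker genes, FZD2 had r = 0.914 with MYOG and SFRP2 had r = 0.919 with PDGFRA over 15 clusters. WNT5B and FZD2 had r = -0.724 over 15 clusters and -0.954 over the 11 clusters left without the shallow clusters 7, 13, 14 and 15.

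The rest of the pathway was read from a list of 83 other Wnt genes. Of these, 3 were not in the feature list under that name, 14 had 0 UMIs and 43 had at least 100. In cluster 9, 15 of 49 tested were higher and 12 lower, where 25.3% and 27.7% of all genes were, with a median log2 fold change of 0.03 against -0.04 over all genes. In cluster 12, 10 were higher and 20 lower of 49 (24.8% and 29.5% of all genes), with a median of -0.49 against -0.09. In cluster 3, 9 were higher and 25 lower of 48 (24.5% and 25.4%), with a median of -0.67 against -0.00247. In cluster 7, 16 were higher and 3 lower of 48 (18.3% and 26.4%), with a median of 0.38 against -0.12. In cluster 10, 17 were higher and 2 lower of 49 (16.7% and 21.9%), with a median of 0.23 against -0.03, and in cluster 8, 12 were higher and 7 lower of 47 (22.5% and 23.5%), with a median of 0.32 against 0.00720. In the shallow clusters 14 and 15 the medians were -0.58 and -0.63 with 3 and 0 genes called. The medians of the other 7 clusters lay between -0.25 and 0.16.

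Cluster 9 held further secreted regulators beside SFRP2. DKK1, which blocks LRP5 and LRP6, was at 0.0824 and 0.0665 there against 0.00133 ± 0.000262 in all other cells (log2 fold change 5.76 ± 0.25, edgeR, adjusted p = 1.32e-05). RSPO3, which keeps Frizzled receptors on the surface, was at 0.539 and 0.566 against 0.0141 ± 7.26e-04 (5.25 ± 0.07, adjusted p = 1.08e-06). The ligands WNT16 and WNT11 were higher by 4.84 ± 0.36 and 4.01 ± 0.13. CELSR2, a planar polarity cadherin, had 1 UMI in cluster 9 and 209 elsewhere, a ratio of levels of 0.0466 with an exact 95% counting interval of 0.00117 to 0.263. Among co-receptors, 4 of the 4 tested besides LRP6 were higher in cluster 9, where 25.3% of all genes were. No other role of the list had all its tested genes higher. Of 3 receptors tested, 0 were higher and 2 lower, and of 5 secreted inhibitors 1 was higher and 1 lower. Of 5 genes of receptor turnover, 3 were higher and 2 lower, and of 6 ligands 2 were higher and 1 lower. Of 8 planar polarity genes, 1 was higher and 2 lower.

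In cluster 7, the 5 named genes were 2 of planar polarity, 2 co-receptors and a ligand. Of the whole list there, 4 of 8 planar polarity genes, 4 of 8 cytoplasmic genes and 3 of 4 co-receptors tested were higher, and 0, 2 and 1 were lower. Of all genes tested there, 18.3% were higher and 26.4% lower. VANGL2 was higher by 2.71 ± 0.44 on the log2 scale (adjusted p = 0.00385), PTK7 by 2.07 ± 0.08 (5.55e-05), ROR1 by 1.93 ± 0.23 (0.00113) and DAAM2, a formin, by 1.71 ± 0.26 (0.00286). WNT11 was higher by 2.11 ± 0.28 (0.00168). PTK7 had 2.34 and 2.19 in cluster 7 against 0.345 ± 0.0183 in all other cells. These levels are per total UMIs, a scaling that put the median log2 fold change of all genes there at 0.52, against -0.12 with TMM. Without cells under 2000 UMIs, VANGL2 (0.39, adjusted p = 0.854) and DAAM2 (1.11, 0.131) did not pass.

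In cluster 12, 3 of the 5 secreted inhibitors tested outside the 10 genes were lower and 1 was higher, and of the 5 genes of receptor turnover 2 were lower and 2 higher. Of all genes tested there, 29.5% were lower and 24.8% higher. DKK1 had 0 UMIs, at least 3.54-fold lower than in all other cells with a limit of 3 counts over the cluster. Those other cells include cluster 9, and all cells outside cluster 9 had DKK1 at 0.00133. That lies under the limit of 0.00242 in cluster 12, so no difference from cells outside cluster 9 was shown. RSPO3 had 0.00325 and 0.00320 against 0.0669 ± 8.87e-04 (log2 fold change -4.19 ± 0.27, edgeR, adjusted p = 4.25e-05). Here too cluster 9 weighs on the other cells, as RSPO3 was at 0.0141 ± 7.26e-04 in all cells outside cluster 9. DKK2 was at 0 and 0.00639 (-3.83 ± 0.54, 0.00141), NOTUM, which strips the lipid from Wnt ligands, at 0.0146 and 0.00799 (-2.75 ± 0.24, 1.54e-04), and ROR1 at 0.00650 and 0 (-2.75 ± 0.65, 0.0122).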

How the data were processed

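The deposited values are counts: the authors aligned reads to ARS-UCD1.2, counted UMIs with Cell Ranger 3.0.2 (tool and build per the labels), combined both libraries and deposited whole-number UMI counts per gene and cell. They also deposited, for 15 clusters, average UMI counts scaled to a common total, with fold changes and p-values of their own comparison, which were not used. The averages convert to whole UMI sums, from which the cluster of all 19096 cells was deduced (30 rounds, 0 of 252240 sums differing). The library of a cell was read from its barcode suffix.

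UMIs were summed per cluster and library and compared as 2 sums against 2 with edgeR 4.0.16 (R 4.3.3, quasi-likelihood, TMM, filterByExpr, Benjamini-Hochberg over all genes tested, adjusted p under 0.05). SE is the log2 fold change over the square root of F. Each library contributes 1 sum to both sides, and so pairs them: its deviations in a cluster and outside it had r from 0.167 to 0.669 over genes with at least 20 UMIs per sum. A fit blocked on library was run as an alternative. On simulated data with 200 genes changed 3-fold, the test recovered most of them in each of 5 comparisons, and in 4 of the 5 the share of false calls was above the nominal level. The simulated sums were drawn without the pairing by library, and far fewer genes were changed than were called in the real fits. These rates may therefore not hold for the real fits.

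Alternatives were DESeq2 1.42.0, no TMM, no filter, the block, leaving out the 8% of cells with the highest Scrublet score (scanpy 1.11.5), leaving out cells under 2000 UMIs, cells assigned by profile without the Wnt list, equal weights for the other clusters, and each library alone. Doublets were otherwise kept. Genes named are the 10 members, per cluster 9, 7 and 12 the 5 other Wnt genes of at least 100 UMIs with the largest called change, and the 3 most similar genes of each member with at least 1000 UMIs. The members and lists were chosen with earlier results of these data known. Clusters carry the numbers of the deposited table.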

Additional observations from a re-analysis of the deposited data

How the results depend on the processing

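Of 90 called log2 fold changes (76 of the 10 genes and 14 of other Wnt genes), 0 changed direction under any alternative run or in either library alone, and 18 lost their call under at least 1. The pairs of gene and cluster called ran from 22 to 32 higher (28 in the report) and from 32 to 42 lower (37). In cluster 9 against cluster 7, 2 genes in place of 1 were higher with cells assigned by profile, without doublets, with the library as a replicate block and without the filter on low counts, SFRP2 being the added gene each time. In cluster 12 against cluster 3, 2 genes in place of 0 were lower with cells assigned by profile (FZD1 and WNT5B) and 1 with the block (FZD1). In cluster 9 against the myogenic clusters, 3 genes in place of 5 were higher with DESeq2 and 3 without the filter, and 2 in place of 1 were lower with the block (FZD2 and LRP6). The cause of these shifts was not tested.

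With the library as a block, 9 further pairs passed: DKK3 (adjusted p = 0.0137), FZD2 (0.00685) and WNT5A (0.0218) in cluster 1, FZD7 (0.0233) in cluster 2, DKK3 in clusters 5 (0.00798) and 6 (0.0112), SFRP1 in clusters 8 (0.0448) and 10 (0.0111), and SFRP2 (0.0452) in cluster 14. The block changed no other call than these and those named above. Cluster 15 could not be fitted without cells under 2000 UMIs, since 1 library then held no cell of it. The calls lost most often were DKK3 in cluster 9 (5 settings), LRP6 in cluster 9 (4), DKK3 in cluster 9 against the myogenic clusters (4), and, in 3 settings each, AXIN2 in the latter comparison and WNT5B and FZD2 in cluster 13. AXIN2 and DKK1 in cluster 12, with 0 UMIs, are not among the 90. Scaling moved the median of all genes by over 0.1 also in cluster 3 (-0.00247 to -0.14 without TMM) and cluster 12 (-0.09 to -0.27), where the calls of the 10 genes stayed at 1 higher and 6 lower.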
